A study of Mus musculus with 4 samples.

Results

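The semaphorins, their plexin and neuropilin receptors and the collapsin response mediator proteins (CRMPs) were described in the cerebral cortex of newborn mice. Members were chosen by name from the deposited gene expression table: 20 semaphorin genes of classes 3 to 7, 9 plexins, both neuropilins, both Plxdc genes and 5 CRMP genes (Crmp1 and Dpysl2 to Dpysl5). This gave 38 of the 55414 genes in the table. The tissue came from C57BL/6J mice on postnatal day 1 and gave 4 libraries. Control replicates 2 and 3 had the genotype Mkk7flox/flox and cKO replicates 2 and 3 the genotype Mkk7flox/flox Emx1-Cre, so every library carried the floxed alleles. Mkk7 is the kinase gene Map2k7, whose product activates JNK, and Emx1-Cre acts in progenitors of the dorsal telencephalon, so cells of other origin in the same tissue keep the gene. Nothing in the labels tells whether replicates are different animals. By the sex-linked transcripts given below, cKO 2 was female and cKO 3 male, so those 2 libraries came from different animals. The tests weigh differences against the spread of 2 libraries per group. Between the Control libraries that spread may be technical in part. It also includes a difference in choroid plexus markers, such as Ttr with 14984 counts in Control 2 and 144 in Control 3. Between the cKO libraries the spread includes a difference of sex.

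Semaphorins are secreted or membrane-bound cues that share a sema domain and attract or repel growing axons and migrating neurons. Plexins are their main receptors and act inside the cell on small GTPases. Most secreted class 3 semaphorins bind neuropilins, which lack a signalling domain of their own and pair with class A plexins. The CRMPs were named for their part in the growth cone's response to Sema3A, and they bind tubulin. In the cortex the family is known for steering callosal and corticofugal axons, for orienting dendrites and for pruning spines.

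Library totals lay between 19421470 and 22511175 counts. Map2k7 had 38.4 and 30.4 CPM (counts scaled to a library of 1000000 and for composition) in the Control libraries against 47.9 and 48.1 CPM in the cKO libraries (edgeR log2 fold change 0.48, SE 0.18, adjusted p = 0.428). This sums reads over the whole gene, and a deletion of part of it need not lower such a sum, so each direction below rests on the labels. Markers of cortical excitatory neurons were present in every library, with 10 markers summing to 843 and 968 TPM (transcripts scaled to a total of 1000000) in the Control libraries and 1039 and 1152 TPM in the cKO libraries. Of these markers 9 of 10 had a positive fold change. Among the 9 was Emx1 (log2 fold change 0.75), the gene that the Cre of the cKO genotype is named for. Whether that allele changes the reads of Emx1 was not tested. The 17 striatal markers summed to 514 and 374 TPM in the Control libraries and 143 and 163 TPM in the cKO libraries, with all 17 negative and none at 0 in any library. The 9 interneuron markers were likewise all negative, at 2015 and 1866 TPM against 1683 and 1456 TPM. The 7 astrocyte markers summed to 1616 and 1703 TPM against 1106 and 1333 TPM, with 4 of 6 tested markers negative. Apoe, the most abundant of them, had a log2 fold change of -0.53 (SE 0.10, edgeR adjusted p = 0.242). The 7 microglia markers stood at 151 and 168 TPM against 136 and 121 TPM, with 6 negative, and the 5 markers of oligodendrocyte precursors at 119.5 and 132 TPM against 90.6 and 118 TPM, with 3 negative. The 9 meningeal and fibroblast markers summed to 128 and 159 TPM against 193 and 192 TPM, with 7 positive. The part of these cell types in the values below was not tested, and in bulk tissue fewer cells of a type and less RNA per cell cannot be told apart. Choroid plexus and ependyma markers split the libraries across the groups, at 1103 TPM in Control 2 and 455 TPM in cKO 2 against 19.7 TPM in Control 3 and 15.9 TPM in cKO 3. The female-specific transcript Xist had 0 counts in cKO 3 and 1004 to 1218 counts in the other libraries, and the Y-linked gene Ddx3y was read 985 times in cKO 3 alone.

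The 38 genes spanned a wide range of levels, and the CRMP genes were by far the most abundant. Levels are compared between genes in deposited TPM, which is scaled for transcript length. The 5 CRMP genes carried 84.5% of the summed TPM of all 38 genes. Crmp1 had a mean of 1253 TPM over the 4 libraries, Dpysl3 974 TPM, Dpysl5 199 TPM, Dpysl2 161 TPM and Dpysl4 78.7 TPM. Crmp1 was above Dpysl3, and Dpysl3 above the other 3, in every library. Dpysl5 lay above Dpysl2 in each library, although the highest value of Dpysl2 (178 TPM in cKO 3) met the lowest of Dpysl5 (178 TPM in Control 3). Among receptors Nrp1 (51.6 TPM) and Plxnb2 (47.1 TPM) led, with ranges over libraries that overlapped. Among the cues Sema6c (56.3 TPM), Sema6b (39.2 TPM) and Sema4c (36.4 TPM) led, and all are membrane-bound. The highest secreted semaphorins were Sema3c and Sema3f, both at a mean of 13 TPM (13.4 and 13.3 TPM). These orders depend on the length used. In CPM per kilobase of deposited gene length Sema6b (25.2) and Sema4c (22.3) lay above Sema6c (18.2), and Plxna1 (16.4) lay above Plxnb2 (14.8), while Nrp1 still led the receptors (38.8). A mean of at least 10 TPM was reached by 22 of the 38 genes. The lowest were Sema3e (0.871 TPM), Plxdc1 (0.616 TPM), Sema3d (0.493 TPM), Sema3g (0.417 TPM) and Plxnb3 (0.115 TPM).

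**Figure D1:**
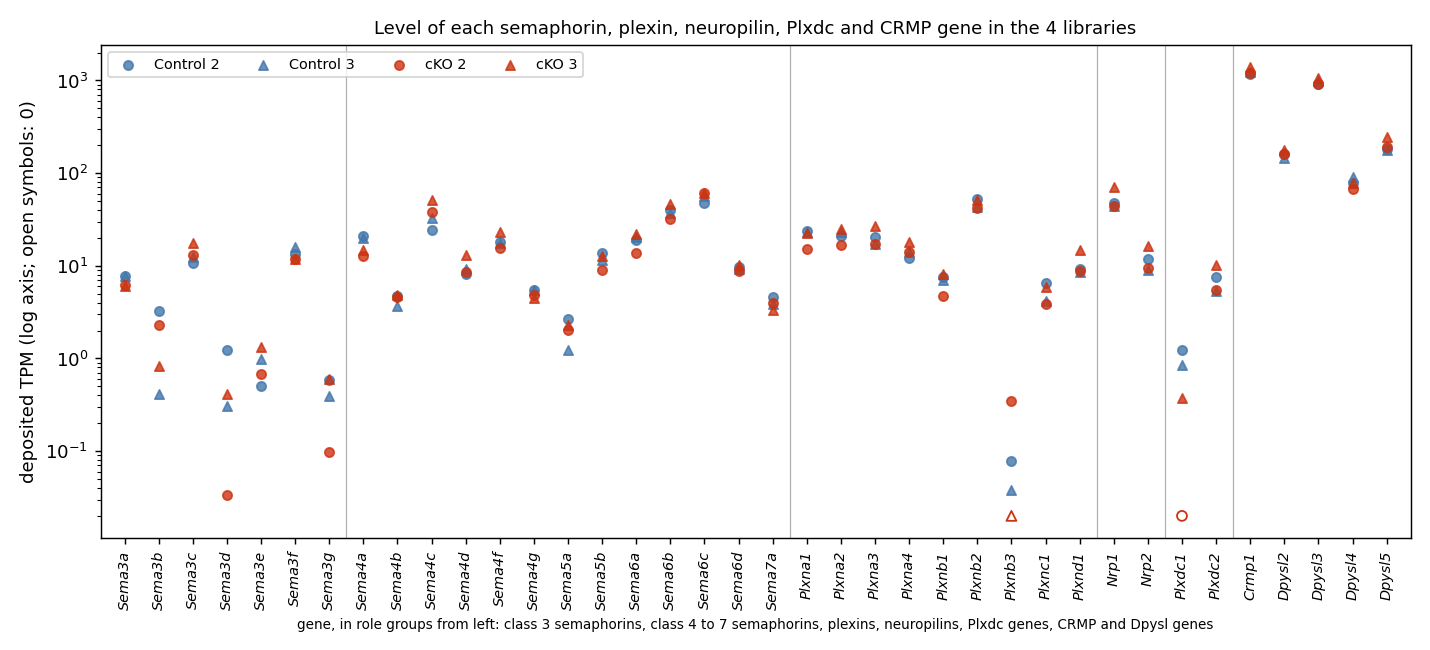
Deposited TPM (log axis) of each of the 38 genes in Control 2 and 3 (blue) and cKO 2 and 3 (red), in role groups separated by vertical lines; open symbols mark a value of 0. Crmp1 and Dpysl3 are the highest, at 913 TPM or more in all 4 libraries, and the libraries differ most from each other in genes under 3 TPM.

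No semaphorin, plexin, neuropilin, Plxdc or CRMP gene passed the threshold between genotypes. Of the 38 genes 37 were kept by the filter on low counts, and 0 of them had an edgeR adjusted p below 0.05 (range 0.344 to 0.972), where 8 of all 17017 tested genes (0.047%) did. DESeq2 called 0 of the 37 as well, against 1.09% of all genes, and limma-voom called 0, against 0.047%. At an unadjusted edgeR p below 0.05 there were 4 of 37 genes (10.8%), close to the 10.9% of all tested genes. These were Sema3c, Sema4c and Plxna4 on the higher side (8.11%, against 5.28% of all genes) and Sema4a on the lower side (2.7%, against 5.66%). That count moved when a library was left out: it was 1 without Control 2 (all genes 5.21%), 2 without Control 3 (4.87%), 9 without cKO 2 (12.9%) and 6 without cKO 3 (13%). The 2 groups had separate CPM values for 17 of 37 genes (45.9%), against 44.1% of all tested genes. The fold change was positive for 22 and negative for 15, with a median log2 fold change of 0.06 beside -0.0021 over all tested genes.

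**Figure D2:**
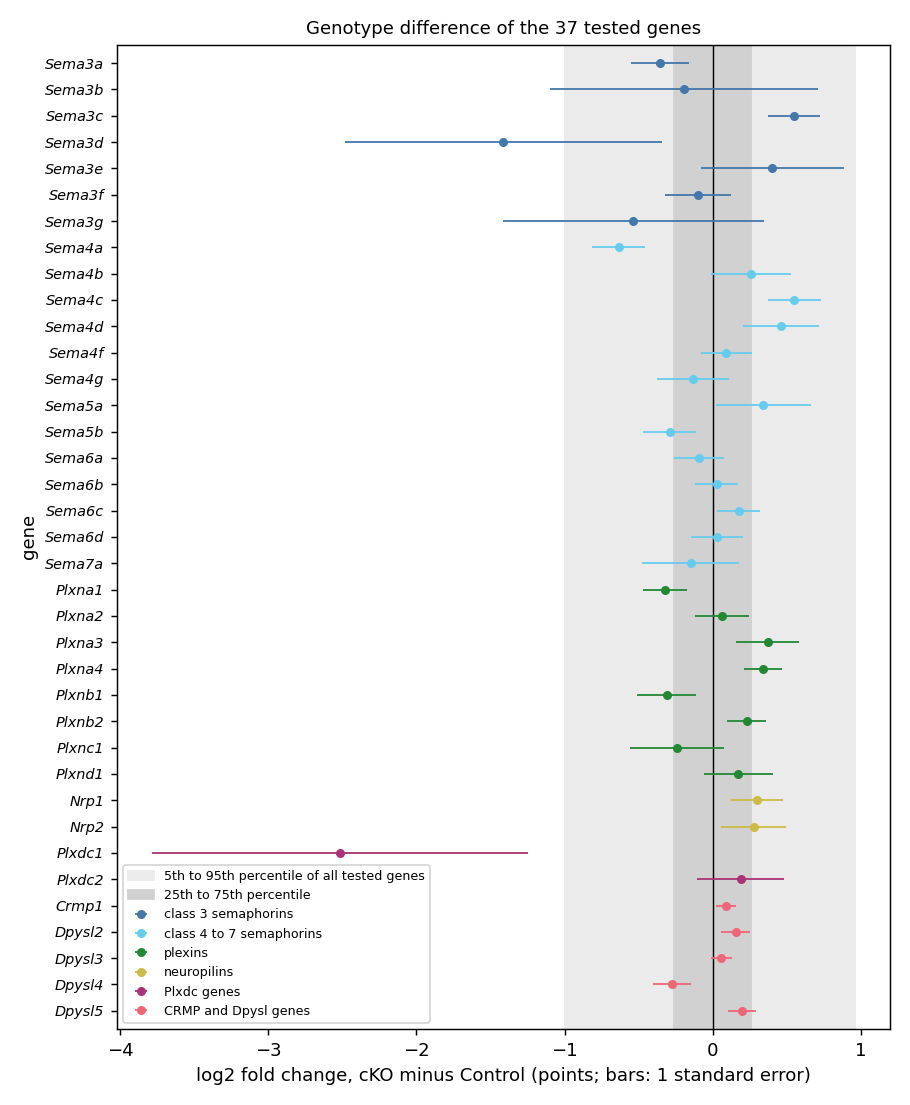
Log2 fold change (cKO minus Control, horizontal axis) of the 37 tested genes, with bars of 1 standard error and colours for role groups; the grey bands give the spread of all tested genes. Most of the 37 genes lie within the wider band from -0.996 to 0.961, and Plxdc1 and Sema3d, both with few counts, lie below it.

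Among the secreted class 3 semaphorins, Sema3c had the smallest p. Sema3c, a cue for callosal axons that carry Nrp1, lies on chromosome 5 (17779279 to 17935266, GRCm39). It stood at 39.3 CPM in Control 2, 44.9 CPM in Control 3, 55.5 CPM in cKO 2 and 67.7 CPM in cKO 3. Both cKO libraries lay above both Control libraries, with a log2 fold change of 0.55 (SE 0.18, edgeR adjusted p = 0.382). Sema3a, the founding repellent of the family, leaned the other way. It had 28.6 and 27.9 CPM in the Control libraries and 23.2 and 21.0 CPM in the cKO libraries (edgeR log2 fold change -0.36, SE 0.20, adjusted p = 0.551), again without overlap. Sema3f, which signals through Nrp2 and Plxna3, had overlapping values of 23.6 and 20.2 CPM against 22.1 and 18.9 CPM (log2 fold change -0.10, SE 0.22). Its cKO values were nevertheless both below the Control values in TPM (11.98 and 11.95 against 13.4 and 16.0 TPM), since the count per TPM differed between the libraries. Over the 7 class 3 genes 2 fold changes were positive and 5 negative, with a median of -0.20.

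The remaining class 3 genes had few counts and wide errors. Sema3b did not follow genotype, with 7.02 CPM in Control 2 and 5.47 CPM in cKO 2 against 1.01 CPM in Control 3 and 1.57 CPM in cKO 3. The libraries high in Sema3b were the same that were high in choroid plexus and ependyma markers, such as the transthyretin gene Ttr (1067 and 429 TPM, against 10.1 and 7.35 TPM). Whether those cells account for Sema3b was not tested. Sema3d was read 80, 24, 3 and 41 times in Control 2, Control 3, cKO 2 and cKO 3, so that the 2 Control libraries differed from each other more than Control 3 did from cKO 3. Sema3e, the ligand of Plxnd1, had 47, 82, 67 and 117 counts, and Sema3g had 39, 27, 7 and 44. For these 4 genes the standard error of the log2 fold change was between 0.48 (Sema3e) and 1.07 (Sema3d), and the groups overlapped.

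**Figure D3:**
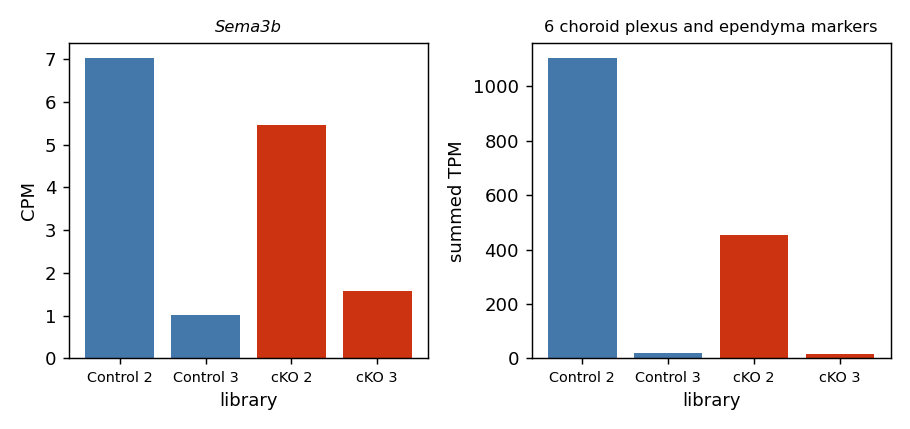
Sema3b in CPM (left) and the summed TPM of 6 choroid plexus and ependyma markers (right) in each library, with Control in blue and cKO in red. Control 2 and cKO 2 are the high libraries in both panels, at 7.02 and 5.47 CPM and at 1103 and 455 TPM.

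Among the membrane-bound semaphorins of classes 4 to 7, Sema4a and Sema4c had the smallest p and lay in opposite directions. Sema4a, a class 4 semaphorin that binds plexins of the B and D classes (chromosome 3, 88343266 to 88368489), stood at 42.4 and 42.0 CPM in the Control libraries. It stood at 25.5 and 28.8 CPM in the cKO libraries, a fold of 0.643 with a 95% interval of 0.481 to 0.86 from the fit. The log2 fold change was -0.64 (SE 0.18, edgeR adjusted p = 0.344), the smallest adjusted p of the 37 genes. Sema4c, a ligand of Plxnb2 (chromosome 1, 36587720 to 36597430), stood at 59.8 CPM in Control 2, 81.4 CPM in Control 3, 96.0 CPM in cKO 2 and 111 CPM in cKO 3. The groups did not overlap, but the Control libraries differed from each other by more than Control 3 did from cKO 2. Its log2 fold change was 0.55 (SE 0.18, edgeR adjusted p = 0.390). Sema4d, the ligand of Plxnb1, stood at 13.2 and 18.8 CPM against 20.4 and 23.7 CPM (edgeR log2 fold change 0.46, SE 0.26, adjusted p = 0.555), and in TPM its groups overlapped. Sema4b also had both cKO libraries higher, at 12.1 and 9.48 CPM against 13.5 and 12.4 CPM (log2 fold change 0.26, SE 0.27).

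Because JNK acts on the AP-1 factor c-Jun, the RefSeq promoter table was searched for TGANTCA (N for any base), which reads the same on both strands. This is a looser form of the AP-1 motif, whose middle base is C or G. Of the 38 genes 28 were in that table, with 40 promoters. The looser motif was in the 250 bases before the start in 3 of these 40 (7.5%), against 6.75% of all 32851 promoters. The matches were TGACTCA in Sema4c, TGAATCA in Sema4d and TGAGTCA in Sema6b. Both percentages count the looser form, and the Sema4d match is not the AP-1 motif itself. The Sema4c promoter is shown because it is the only 1 of these 3 whose gene had an unadjusted p below 0.05. It lies at chr1:36558382-36558631 (GRCm38.p6, minus strand, RefSeq). It is written 5′ to 3′ with the motif in capitals, 22 to 16 bases before the RefSeq start. The GENCODE annotation of the same build also has the gene on the minus strand, with its nearest transcript start 32 bases further downstream, so that the motif lies 54 to 48 bases before that start:
Sema4c: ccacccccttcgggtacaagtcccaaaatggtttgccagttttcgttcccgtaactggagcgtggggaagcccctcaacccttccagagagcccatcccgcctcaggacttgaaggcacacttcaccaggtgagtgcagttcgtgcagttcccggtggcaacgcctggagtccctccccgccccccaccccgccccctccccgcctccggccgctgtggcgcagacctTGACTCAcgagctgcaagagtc
The match is a description of these letters. The 3 genes with the looser motif had log2 fold changes of 0.55 (Sema4c), 0.46 (Sema4d) and 0.03 (Sema6b), and none passed the threshold. A part of the motif in these values was not tested.

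The class 5 semaphorins, which carry thrombospondin repeats, showed no common direction. Sema5b had 39.8 and 36.3 CPM in the Control libraries and 29.9 and 32.3 CPM in the cKO libraries (edgeR log2 fold change -0.29, SE 0.18, adjusted p = 0.595). Sema5a was at 18.6, 18.3 and 18.0 CPM in Control 2, cKO 2 and cKO 3 and at 10.04 CPM in Control 3. Its log2 fold change was 0.34 (SE 0.32), and -0.04 without Control 3. The class 6 semaphorins, which act with class A plexins, lay close to no change. Sema6c, the semaphorin with the highest TPM, had 78.6 and 95.5 CPM against 102 and 94.0 CPM (edgeR log2 fold change 0.17, SE 0.15, adjusted p = 0.703). Sema6b had 94.2 and 92.3 CPM against 85.1 and 105 CPM, a log2 fold change of 0.03 with a 95% interval of -0.32 to 0.37. Sema6a (-0.09, SE 0.17) and Sema6d (0.03, SE 0.18) also overlapped between groups. Sema7a, a lipid-anchored semaphorin that binds Plxnc1 and integrins, had 9.10 and 9.43 CPM against 10.2 and 6.52 CPM. Sema4f and Sema4g, with log2 fold changes of 0.09 and -0.13, overlapped as well. Over the 13 genes of classes 4 to 7 the fold change was positive in 8 and negative in 5, and the median was 0.03.

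**Figure D4:**
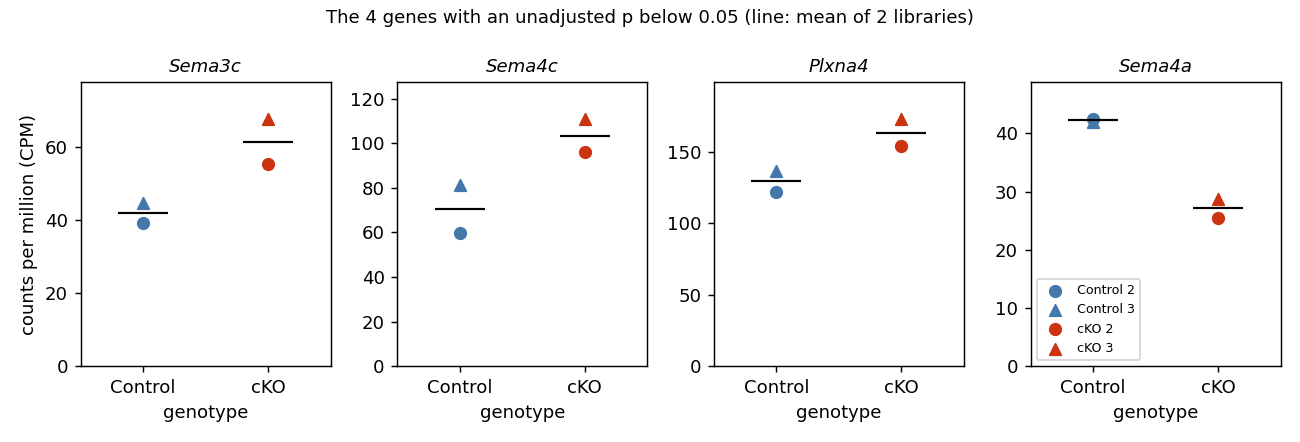
CPM (vertical axis, from 0) of the 4 genes with an unadjusted p below 0.05, with 1 point per library and a line at the mean of 2 libraries. Sema3c, Sema4c and Plxna4 have both cKO libraries above both Control libraries and Sema4a has both below, with 25.5 and 28.8 against 42.4 and 42.0 CPM.

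The class A plexins, receptors shared by class 3 and class 6 semaphorins, differed in direction. Plxna4, a receptor for Sema3A with Nrp1 and for class 6 semaphorins (chromosome 6, 32121203 to 32565127), stood at 122 and 136 CPM in the Control libraries. It stood at 154 and 173 CPM in the cKO libraries (edgeR log2 fold change 0.34, SE 0.13, adjusted p = 0.426). Plxna1, on the same chromosome (89293296 to 89339602), leaned the other way. It had 165 and 164 CPM in the Control libraries and 115 and 148 CPM in the cKO libraries (edgeR log2 fold change -0.33, SE 0.15, adjusted p = 0.475). For both genes the groups did not overlap, but the 2 cKO libraries of Plxna1 were further apart than cKO 3 was from the Control libraries. Plxna3, a receptor for Sema3F on the X chromosome, had 65.3 and 49.6 CPM against 62.2 and 86.1 CPM, with its highest value in cKO 3, the only library without Xist (edgeR log2 fold change 0.37, SE 0.21, adjusted p = 0.566). Plxna2 had 127 and 125 CPM against 107 and 156 CPM, with the Control libraries between the 2 cKO libraries (log2 fold change 0.06, SE 0.18).

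Plexins of the B, C and D classes gave small differences. Plxnb2, the plexin with the highest TPM and a receptor for Sema4C, stood at 84.1 and 93.0 CPM in the Control libraries and 99.9 and 108 CPM in the cKO libraries (edgeR log2 fold change 0.23, SE 0.13, adjusted p = 0.566). In TPM its groups overlapped, at 52.5 and 42.8 TPM against 41.9 and 51.3 TPM. Plxnb1, the receptor for Sema4D, had 50.1 and 47.7 CPM against 33.3 and 45.4 CPM (edgeR log2 fold change -0.31, SE 0.20, adjusted p = 0.604). Plxnc1, the receptor for Sema7A, had 34.3 and 21.4 CPM against 18.0 and 29.0 CPM, and Plxnd1, the receptor for Sema3E, had 33.2 and 33.5 CPM against 29.8 and 45.2 CPM. Both overlapped between groups, at -0.24 (SE 0.32) and 0.17 (SE 0.23) on the log2 scale. Plxnb3 was read 6, 3, 33 and 0 times in Control 2, Control 3, cKO 2 and cKO 3, and was the only gene of the 38 that the filter left out. Of the 8 tested plexins 5 were positive and 3 negative.

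Both neuropilins were highest in cKO 3, and the other 3 libraries lay closer together. Nrp1, the binding receptor for Sema3A and a co-receptor for vascular endothelial growth factor, stood at 131 and 122 CPM in the Control libraries, 129 CPM in cKO 2 and 182 CPM in cKO 3. Its log2 fold change was 0.30 (SE 0.17, edgeR adjusted p = 0.577), and it was 0.03 without cKO 3. Nrp2, the binding receptor for Sema3F, had 58.9 and 46.8 CPM in the Control libraries, 52.1 CPM in cKO 2 and 75.8 CPM in cKO 3. Its log2 fold change was 0.28 (SE 0.22, edgeR adjusted p = 0.686), and -0.02 without cKO 3. The Plxdc genes encode membrane proteins with a plexin-like repeat and are not plexins. Plxdc1, first described in tumour endothelium, was read 51 and 36 times in the Control libraries, 0 times in cKO 2 and 17 times in cKO 3 (edgeR log2 fold change -2.52, SE 1.27, adjusted p = 0.521). Without cKO 2 it was -1.56, and without cKO 3 the only cKO library left was at 0 counts, where a fitted value (-8.43) depends on the prior count and is no bound. The 8 endothelial and pericyte markers summed to 176 and 163 TPM against 164 and 172 TPM, of which Cldn5 made up a mean of 119 TPM. Of the 8, 6 had a positive fold change, with a median of 0.34, and 5 had both cKO libraries higher in CPM. Their part in the Plxdc1 values was not tested. Plxdc2 had 17.1 and 14.5 CPM against 13.7 and 22.2 CPM (log2 fold change 0.19, SE 0.29).

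The CRMP genes gave the tightest estimates. Crmp1 stood at 2409 and 2571 CPM in the Control libraries and 2649 and 2653 CPM in the cKO libraries. Its fold was 1.06, with a 95% interval of 0.954 to 1.19 (edgeR adjusted p = 0.667). Dpysl3, which encodes CRMP4, had 1894 and 2028 CPM against 2039 and 2040 CPM, a fold of 1.04 with an interval of 0.925 to 1.17 (edgeR adjusted p = 0.812). Dpysl2, which encodes CRMP2, a tubulin-binding protein that GSK3 and CDK5 phosphorylate, had 547 and 492 CPM against 584 and 571 CPM (edgeR log2 fold change 0.15, SE 0.10, adjusted p = 0.619). Dpysl5, which encodes CRMP5, had 698 and 704 CPM against 754 and 852 CPM (edgeR log2 fold change 0.20, SE 0.10, adjusted p = 0.517). Dpysl4, which encodes CRMP3, was the only CRMP gene with lower cKO values, at 163 and 188 CPM against 150 and 140 CPM (edgeR log2 fold change -0.28, SE 0.13, adjusted p = 0.482). In CPM the groups were separate for all 5 genes, as they were for 44.1% of all tested genes. In TPM the groups of Crmp1, Dpysl2 and Dpysl3 overlapped.

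cKO 3 was the library with the highest CPM for 18 of the 37 tested genes (48.6%), where it was highest for 25.9% of all tested genes. cKO 2 was the lowest for 14 (37.8%), against 27.6% of all genes. The median deviation of the 37 genes from their mean over the libraries was 0.16 in cKO 3 and -0.06 in cKO 2 on the log2 scale, against 0.03 and -0.03 in Control 2 and Control 3. The 2 cKO libraries thus differed by a median of 0.30 (log2, absolute) for these genes, more than the 0.16 between the Control libraries and the 0.26 between the group means. Over all tested genes the same 3 values were 0.31, 0.23 and 0.26. In cKO 3 the Cajal-Retzius markers also had their highest sum, 83.9 TPM against 36.97 to 51.2 TPM elsewhere. Most of that sum was Reln (65.7 TPM). Trp73 and Ndnf were also highest in cKO 3, while Lhx5 was lowest there (1.22 TPM). The sums for cortical excitatory neurons (1152 TPM) and intermediate progenitors (86.3 TPM) were highest in cKO 3 as well. Lowest in cKO 3 were the sums for interneurons (1456 TPM), microglia (121 TPM), choroid plexus and ependyma (15.9 TPM) and red blood cells (4330 TPM). The red blood cell sum was highest in cKO 2 (10217 TPM). The sex of cKO 3 differed from that of the other libraries. The part of any of these in the high values of cKO 3 was not tested.

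The ratio of estimated count to TPM follows the length of the transcripts to which the reads were assigned. Scaled on 1197 genes with a single transcript, this apparent length can be compared between libraries within a gene. Of the 31 members with several transcripts and at least 100 counts in each library, 16 did not overlap between groups (51.6%), against 52% of all such genes. Of the 1197 genes with a single transcript, whose length is fixed, 60.7% did not overlap either, so a separation of the groups in apparent length does not by itself show a change of transcript. In those genes the highest library was a median of 1.04 times the lowest, and 1.09 times at percentile 95. For all genes with several transcripts and at least 100 counts in each library the spread was wider, at 1.10 and 1.53 times. Plxnd1 was shorter in both cKO libraries, at 4842 and 5036 bases against 5721 and 6180 bases in the Control libraries (ratio 0.830, beside a median of 0.971 over all such genes). Plxnb2 differed between Control libraries instead, at 2541 bases in Control 2 and 3412 to 3422 bases in the other 3. Sema3f was at 1987 bases in Control 3 and 2572 to 2799 bases elsewhere. Dpysl2, which has 1 transcript in the table, lay between 5229 and 5360 bases.

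Of 37 genes that act with semaphorins and plexins, 0 passed the threshold in the edgeR fit (adjusted p of at least 0.275), and 7 (18.9%) had an unadjusted p below 0.05, beside the 10.9% over all genes. DESeq2 called 1 of the 37, Met, against 1.09% of all tested genes. The co-receptors and binding partners had 10 of 11 positive fold changes with a median of 0.35, and 5 of the 7 were among them. Met, the receptor for hepatocyte growth factor that class B plexins associate with, stood at 11.95 and 11.6 CPM in the Control libraries and 26.8 and 23.2 CPM in the cKO libraries. Its log2 fold change was 1.09 (SE 0.22), with an edgeR adjusted p of 0.275 and a DESeq2 adjusted p of 0.0251. Nrcam, an adhesion molecule that pairs with neuropilins, stood at 113 and 116 CPM against 157 and 155 CPM (edgeR log2 fold change 0.45, SE 0.12, adjusted p = 0.311). Itgb1, the integrin subunit that serves as a receptor for Sema7A, stood at 92.2 and 103 CPM against 128 and 129 CPM (edgeR log2 fold change 0.40, SE 0.12, adjusted p = 0.379). L1cam, the adhesion molecule of the Sema3A receptor complex, overlapped between groups (log2 fold change 0.08), and was named after its values were seen. In the same libraries the markers of cortical excitatory neurons had a median of 0.20 and those of striatal neurons a median of -1.67, and their part in these values was not tested.

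Inside the cell, the 12 small GTPases and exchange factors had 7 positive and 5 negative fold changes (median 0.06), and the 14 kinases and cytoskeletal effectors had 8 and 6 (median 0.03). Rnd1, a small GTPase that binds plexin cytoplasmic domains, had 36.1 and 37.4 CPM in the Control libraries and 23.2 and 25.8 CPM in the cKO libraries (edgeR log2 fold change -0.58, SE 0.19, adjusted p = 0.380). Rac1 and Rap1a had values of 0.20 (SE 0.10) and 0.32 (SE 0.17) on the log2 scale. Cdk5, a kinase that phosphorylates CRMP2, had 157 and 156 CPM against 135 and 107 CPM (edgeR log2 fold change -0.37, SE 0.14, adjusted p = 0.431). Mical1, an oxidoreductase that disassembles actin downstream of plexins, and the kinase gene Pak1 had values of -0.34 (SE 0.18) and 0.18 (SE 0.11).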

How the data were processed

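RNA of 4 libraries was sequenced after TRIzol extraction, DNase treatment and SMART-Seq v4 library preparation, per the labels' protocols. The authors deposited estimated counts per gene and TPM per library, made with DRAGEN on build GRCm39, per the submitters' processing notes; annotation release and settings: not given in the sources used here. The deposited gene length was used only for a second scale of levels and for apparent length. Between 12.0% and 13.5% of the deposited estimated counts in a library were not whole, and all were rounded. The default filter of edgeR (4.0.16, R 4.3.3) kept 17017 genes, and the TMM factors lay between 0.979 and 1.02. edgeR's quasi-likelihood test compared the genotypes, with p-values adjusted by Benjamini-Hochberg over all tested genes (threshold 0.05); the standard error is the absolute log2 fold change over the square root of F, and the 95% intervals use the same fit. On simulated counts of these 17017 genes the test found 64 of 100 with a simulated 2-fold change and 87 of 100 with a 4-fold change. It made 15 false calls. The changed genes were drawn only from those above a set average CPM. These shares therefore do not cover genes with few counts, such as Sema3d and Plxdc1. The libraries of a group differed by more than repeated sequencing of the same library would give (chi-square per degree of freedom 12.8 for Control and 27.7 for cKO). This does not tell whether the Control libraries come from different animals. They differed in choroid plexus markers, with 14984 counts of Ttr in Control 2 and 144 in Control 3.

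The members, partner list and marker lists (12 cell types; all 129 listed genes matched) were chosen with earlier results of these data known. Full values were given for up to 6 genes with the smallest p and the 2 with the highest TPM of each role group, up to 3 partners per role, Map2k7, and up to 2 markers per list. Other members are named with their level, as the rule allows. Alternatives were other scalings and filters, DESeq2 (1.42.0), limma-voom (3.58.1), robust shrinkage, a replicate block and leaving out each library. Proteins were not analysed here.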

Additional observations from a re-analysis of the deposited data

How the results depend on the processing

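No semaphorin, plexin, neuropilin, Plxdc or CRMP gene passed the threshold under any of the 12 alternatives run, among them DESeq2, limma-voom, no filter and each library left out. Over all genes the count of 8 became 58 with no filter and 185 with DESeq2, and lay between 0 and 2 when 1 library was left out. DESeq2 called 1 pathway partner (Met) where edgeR called 0. With the replicate block, 7 genes were called over all genes and 0 of the members. The labels tie no replicate number to a litter or batch, and deviations of same-numbered libraries had a correlation of 0.014 over all tested genes. Such a correlation cannot exclude a shared origin that acts on few genes. Choroid plexus and ependyma markers and Sema3b were higher in Control 2 and cKO 2 than in Control 3 and cKO 3. Whether same-numbered libraries share a litter or batch cannot be told from these values. On counts per kilobase of deposited length 15 members reached a level of 10, against 22 by TPM.

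Of the 37 tested members 22 kept their sign under all 12 alternatives and 15 did not. Sema3b turned to 0.0694 with limma-voom and 0.0943 with the replicate block. The other reversals came from leaving out 1 library: the ranges were -1.35 to 1.78 for Sema3b, -0.22 to 0.01 for Sema3f, -2.17 to 0.20 for Sema3g, -0.11 to 0.26 for Sema4f, -0.32 to 0.0363 for Sema4g, -0.0405 to 0.85 for Sema5a, -0.28 to 0.0721 for Sema6a, -0.13 to 0.17 for Sema6b, -0.0855 to 0.14 for Sema6d, -0.51 to 0.14 for Sema7a, -0.24 to 0.31 for Plxna2, -0.63 to 0.13 for Plxnc1, -0.16 to 0.44 for Plxnd1, -0.0207 to 0.52 for Nrp2 and -0.21 to 0.50 for Plxdc2. The cause was not tested. Sema3c (0.40 to 0.69), Sema4c (0.34 to 0.79), Plxna4 (0.25 to 0.42) and Sema4a (-0.73 to -0.55) kept their sign without each library. So did Plxdc1 (-8.43 to -1.56) and Sema3d (-4.01 to -0.31), both with few counts. With 2 libraries a group, a standard error of 0.07 to 0.23 for members of at least 10 TPM limits what could be detected.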
